A study of Danio rerio with 6 samples.

Results

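Genes of the proteasome were followed in cd41-positive cells of zebrafish embryos, from ddx41 mutants and wildtypes. A gene was a member where its Ensembl symbol, read in lower case, began with psma, psmb, psmc or psmd followed by a number. The rule itself reads names and no expression values. The rule found 48 of the 32105 genes in the count table. By role these are 10 alpha and 7 constitutive beta genes of the 20S core, 6 immunoproteasome-type beta genes, 12 genes of the 19S base, 9 of the 19S lid and 3 for chaperones that help to build the base. The remaining member, PSMC3IP, encodes a recombination protein named for binding a proteasome ATPase and is not a subunit. Symbols are printed as the name table gives them, many in the capitals of the human orthologue. No sequence is shown because none was used here.

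RNA was taken from cd41-positive cells, cd41 being a marker of blood progenitors and thrombocytes, of embryos at 40 hours after fertilization. The titles of all 6 libraries read cd41gfp, the name of a green fluorescent reporter of cd41, whose construct the labels do not describe. The groups were 3 libraries labelled ddx41 mutant and 3 labelled wildtype, of polyadenylated RNA. DDX41 is an RNA helicase. The labels name neither the mutant allele nor the number of embryos behind a library, and nothing says that the libraries came from separate clutches, and the p-values therefore reflect no more than the spread among these 6 libraries.

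The proteasome degrades proteins that carry ubiquitin chains. Its 20S core is a barrel of alpha and beta rings in which the products of psmb5, psmb6 and psmb7 cut peptide bonds. The 19S regulatory particle caps the barrel, with a base of ATPases that unfold substrates and a lid that removes ubiquitin. In immune cells, and after interferon, other beta subunits replace the catalytic ones and change the peptides made for antigen presentation.

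Total counts on genes were 14577735 to 15912260 in the mutant libraries and 17001423 to 17639699 in the wildtype libraries, and 26.5% to 30.7% and 21.3% to 27.6% of them fell on the mitochondrial genome. The gene behind cd41, itga2b, was detected in each library, at 2.62 to 6.44 CPM in mutants and 1.18 to 3.22 CPM in wildtypes. The progenitor genes RUNX1 and MYB averaged 1.68 and 95.4 CPM in mutants and 2.60 and 159 CPM in wildtypes. Markers of several cell types differed between the same libraries. The summed level of 16 red blood cell genes, 14 of them higher in mutants, was 6225, 21168 and 19184 CPM (counts corrected for the size and composition of each library) in mutant replicates 1, 2 and 3 and 626, 2231 and 3079 CPM in the wildtype replicates. The sum of 18 myeloid genes, 5 of them lower, was 10051 to 13913 CPM in mutants and 17822 to 35783 CPM in wildtypes. Most of that sum was the gene lyz, at 7173 to 10424 CPM in mutants and 12891 to 26511 CPM in wildtypes. The log2 fold change of mutant over wildtype was negative in all 18. Thrombocyte genes were higher in 5 of 10 (303 to 750 against 152 to 347 CPM) and lens genes in 9 of 10 tested (76.4 to 277 against 12.8 to 15.9 CPM, with crygm2d13 and CRYAA at 0 in wildtypes). The thrombocyte genes were not uniform, as 7 stood above and 3 (mpl, rgs18 and FLI1) below the wildtypes. The gene mpl was at 0.635 to 4.85 CPM in mutants and 8.50 to 23.6 CPM in wildtypes (edgeR adjusted p = 0.0688). Neuron and retina genes were lower in 3 of 9 tested (37.9 to 59.1 against 111 to 538 CPM, with gap43 at 0 throughout). Of 14 stem and progenitor genes and of 10 endothelial genes 1 each was higher, TAL1 and stab2 (sums of 330 to 542 against 267 to 462 CPM, and 37.4 to 125 against 42.2 to 88.9 CPM). Most of the stem and progenitor list went the other way, with 10 negative and 4 positive log2 fold changes of mutant over wildtype and a median of -0.51. In the endothelial list 6 were positive and 4 negative. In sorted pools, fewer cells of a type and less RNA per cell cannot be told apart, and the part of the cell mix in the proteasome values was not tested.

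Most proteasome genes stood modestly higher in the mutants, and none passed the test. The median log2 fold change of the 41 members with enough counts to be tested was 0.37, a 1.29-fold higher level, while the median of all 18722 genes tested was 0.02 with quartiles of -0.60 and 0.63. Of these 41 genes, 36 had a log2 fold change above 0, which is 87.8%, beside 51% of all genes tested. By edgeR's quasi-likelihood test with Benjamini-Hochberg adjustment over all genes, 0 of 41 were higher and 0 lower (threshold 0.05; adjusted p from 0.114 to 0.900), where 3.34% of all genes tested were higher and 1.99% lower. At an unadjusted p below 0.05, 6 members were higher, or 14.6%, and 0 lower, beside 11.9% and 10.9% of all genes. With a mutant library left out, such members higher numbered 11 (replicate 1), 1 (replicate 2) and 2 (replicate 3). With a wildtype library left out they numbered 3 (replicate 1), 7 (replicate 2) and 3 (replicate 3). Without mutant replicate 2, 1 member was lower at that p. The share of all genes at that p is not given for these fits, so a shift of the members alone is not shown. Genes called higher at the adjusted threshold moved too, from 625 to 1135 without mutant replicate 1 and to 51 without wildtype replicate 2. No member passed that threshold in these fits. DESeq2 called 0 members as well (smallest adjusted p = 0.0755), and limma voom with sample weights called 2 higher, PSMC1 and PSMD8 (adjusted p = 0.0309 and 0.0495), where it called 7.8% of all genes higher.

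The 3 mutant libraries lay above all 3 wildtype libraries for 13 of the 41 tested members, or 31.7%, and below them for 0. Among all genes tested 15.3% lay above and 13.4% below. The 95% interval of the fold change stayed within 2-fold in either direction for 16 members, or 39.0%, beside 13.3% of all genes. That count depends on the size of the change as well as on the width of the interval. The interval lay wholly above 0 for 6 members, PSMC1, psmc1b, PSMC6, PSMD8, PSMD12 and PSMB7. These are the same 6 that were higher at an unadjusted p below 0.05 (14.6%, beside 11.9% of all genes). Interval and p come from the same edgeR test, so this is no separate result. The 7 members not tested were 5 immunoproteasome types with few counts and both entries for PSMD2.

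**Figure D1:**
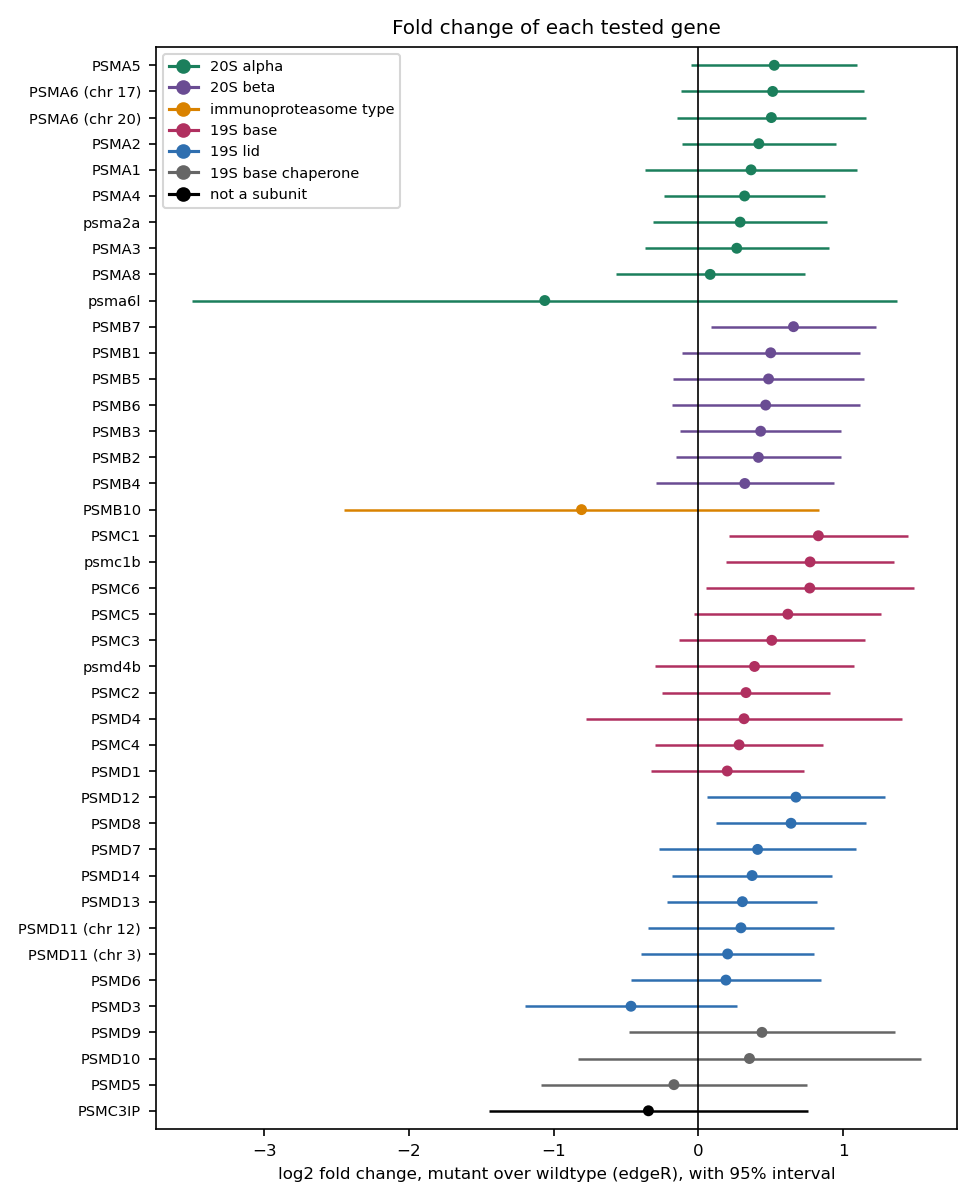
Log2 fold change of mutant over wildtype for each of the 41 tested members, by class, from edgeR with its 95% interval (horizontal line; vertical line at 0: no difference). Points of the core, base and lid lie to the right of 0 except psma6l and PSMD3, most of their intervals reach across 0, and PSMB10, PSMD5 and PSMC3IP lie to the left.

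The alpha genes encode the outer rings of the core, whose tails gate the entrance to the barrel. All 10 were tested, 9 had a positive log2 fold change and the class median was 0.34, or 1.27-fold. PSMA5 (chromosome 11, 36081014 to 36089010, GRCz10) stood at 94.5, 117 and 128 CPM in mutant replicates 1, 2 and 3 and at 62.4, 92.7 and 81.5 CPM in the wildtype replicates. Every mutant library exceeded every wildtype library, by a narrow margin between mutant replicate 1 and wildtype replicate 2, and the log2 fold change was 0.53 ± 0.25 (SE; edgeR adjusted p = 0.261). PSMA2 (chromosome 19, 35418025 to 35423123) was at 85.6, 90.3 and 74.9 CPM in mutants and 63.4, 71.1 and 53.3 CPM in wildtypes. Its groups did not overlap either, with a log2 fold change of 0.42 ± 0.24 (adjusted p = 0.336). These were the only alpha genes whose groups did not overlap.

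Zebrafish carry a pair of PSMA6 genes. The copy on chromosome 17 stood at 68.9, 97.4 and 109 CPM in mutants and 48.6, 74.7 and 69.6 CPM in wildtypes, with mutant replicate 1 below wildtype replicates 2 and 3 (log2 fold change 0.51 ± 0.28 SE, edgeR adjusted p = 0.318). The copy on chromosome 20 gave 0.51 ± 0.29 at a lower level, and 195 of its 1124 exon bases overlap the gene nfkbiaa on the opposite strand. PSMA4, among the most abundant alpha genes, was at 99.8 CPM on average in mutants and 79.9 CPM in wildtypes (0.32 ± 0.25). PSMA1, PSMA3 and psma2a gave 0.36 ± 0.33, 0.27 ± 0.28 and 0.29 ± 0.27. PSMA8, for which the RefSeq gene table lists psma7 as a synonym, lay closest to no difference, at a log2 fold change of 0.08 ± 0.29 (adjusted p = 0.900). The low-level gene psma6l was at 0.318, 2.07 and 0.128 CPM in mutants and 0.739, 1.86 and 2.69 CPM in wildtypes, and its log2 fold change of -1.06 ± 1.08 is too uncertain to give a direction.

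The 7 constitutive beta genes were all positive, with a class median of 0.47 or 1.38-fold. PSMB7, which encodes the subunit with trypsin-like activity, was the most abundant by CPM and showed the clearest separation. PSMB7 (chromosome 21, 8249235 to 8259556) was at 170, 166 and 182 CPM in mutants and 96.5, 142 and 89.4 CPM in wildtypes. The mutant libraries were close to each other while wildtype replicate 2 stood well above the other wildtypes, and the groups did not overlap. The log2 fold change was 0.66 ± 0.25 (SE), or 1.58-fold (edgeR adjusted p = 0.164).

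The other catalytic genes had overlapping groups. PSMB5, for the chymotrypsin-like subunit, was at 39.8, 62.9 and 59.2 CPM in mutants and 34.4, 49.3 and 31.96 CPM in wildtypes (log2 fold change 0.49 ± 0.29 SE, edgeR adjusted p = 0.367). Of its 1308 exon bases 109 are shared with an unnamed gene on the same strand. PSMB6, for the caspase-like subunit, was at 37.9, 52.1 and 52.8 CPM and 24.8, 40.4 and 38.2 CPM (0.47 ± 0.29, adjusted p = 0.383). In both genes mutant replicate 1 lay below wildtype replicate 2, and in PSMB6 also just below wildtype replicate 3.

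Among the structural beta genes PSMB1, PSMB2 and PSMB3 separated the groups without passing. PSMB1 was at 112, 135 and 139 CPM in mutants and 62.8, 109 and 101 CPM in wildtypes, with a log2 fold change of 0.50 ± 0.27 (SE; edgeR adjusted p = 0.318). PSMB2 was at 121, 135 and 130 CPM in mutants and 70.4, 107 and 112 CPM in wildtypes, at 0.42 ± 0.25. PSMB3 was at 106, 143 and 106 CPM in mutants and 74.3, 100 and 89.0 CPM in wildtypes, at 0.43 ± 0.25. In these genes wildtype replicate 1 was the lowest library of all 6. The groups of PSMB4, at a log2 fold change of 0.32 ± 0.27, overlapped.

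**Figure D2:**
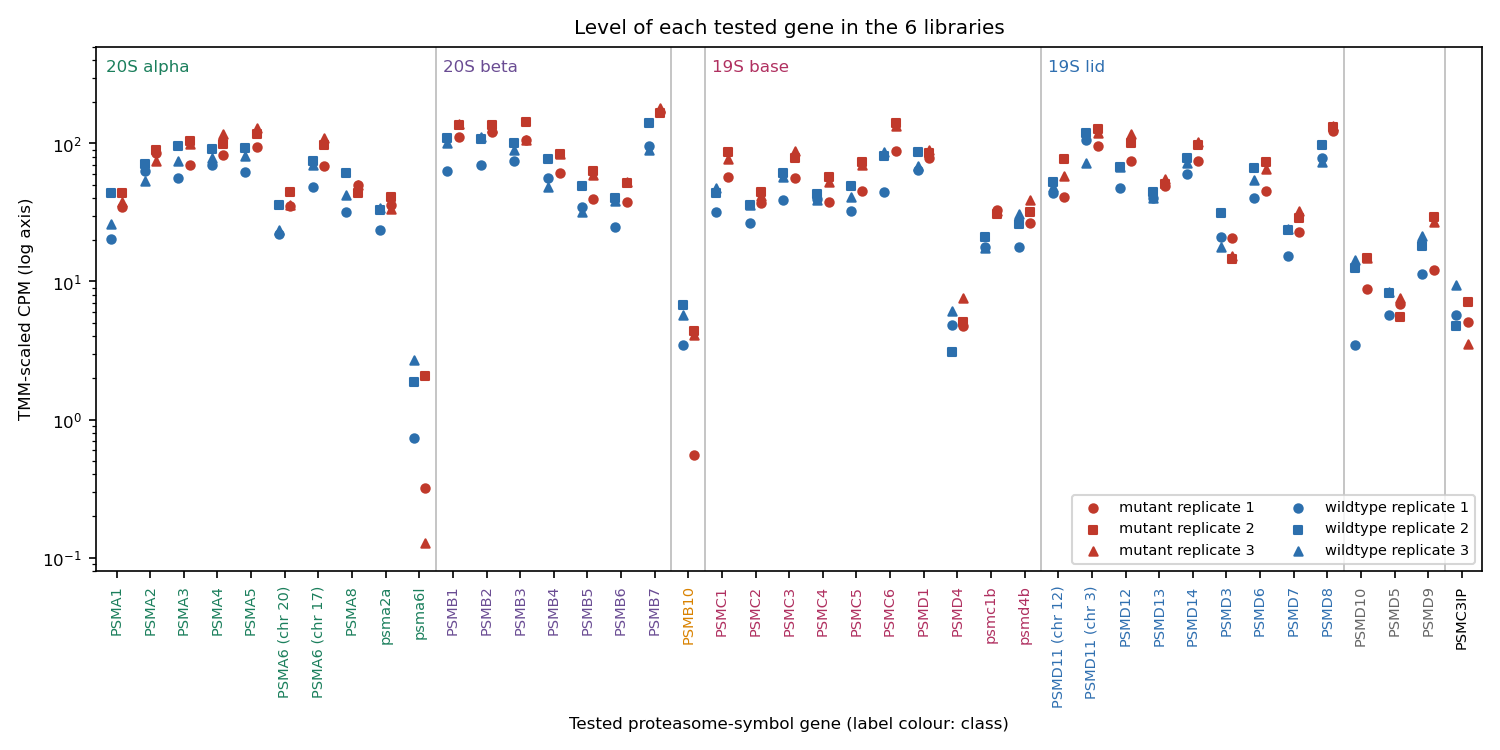
Level of each of the 41 tested members in the 6 libraries, in CPM on a log axis, with mutants in red, wildtypes in blue, 1 symbol per replicate number and label colour by class; members are not corrected for length. Mutant symbols sit slightly above wildtype symbols for most core, base and lid genes. The genes psma6l, PSMB10, PSMD4, PSMD5 and PSMC3IP lie at low levels, psma6l and PSMB10 with wide scatter.

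The immunoproteasome types were at low levels, and no genotype difference was shown for any one of them. Only PSMB10, the inducible partner of PSMB7, had enough counts to be tested. PSMB10 (chromosome 4, 75630955 to 75639856) held 7, 68 and 64 counts in mutant replicates 1, 2 and 3 and 66, 108 and 110 counts in the wildtype replicates, or 0.556, 4.39 and 4.08 CPM against 3.48, 6.70 and 5.69 CPM. Mutant replicate 1 was far below the rest, and the other mutants overlapped wildtype replicate 1. The log2 fold change was -0.81 ± 0.73 (SE), with a 95% interval from -2.45 to 0.83 (edgeR adjusted p = 0.565), so neither a decrease nor an increase is shown.

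The other 5 immunoproteasome types had too few counts for a comparison. PSMB8, the inducible partner of PSMB5, held 8, 0 and 0 counts in mutants and 1, 2 and 12 in wildtypes. PSMB9, the partner of PSMB6, held 3, 7 and 1 against 4, 0 and 4. The fish gene psmb12 held 0, 2 and 0 counts in mutants and 0, 0 and 37 in wildtypes, all but 2 of them thus in wildtype replicate 3. These counts are scattered over libraries of both genotypes with no common order. The fish gene psmb13a held 0, 0 and 6 counts against 4, 5 and 1, and psmb11b held 0, 0 and 3 against 0 in every wildtype library, where 3 counts over the group is the limit that a count of 0 allows. PSMB8, psmb13a, psmb12 and PSMB9 lie together on chromosome 19 between 7186913 and 7225660, in a cluster known in fish for linkage to antigen presentation genes. PSMB8 shares 394 of its 1620 exon bases with psmb13a on the same strand and tap2a on the other, and psmb13a shares 359 of 1486, so their separate counts are uncertain.

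To compare the types with the genes they replace, levels were divided by exon length. The immunoproteasome types made up 0.583%, 2.18% and 1.91% of the summed level per kb of catalytic beta genes in mutant replicates 1, 2 and 3, and 3.03%, 3.68% and 6.29% in the wildtype replicates. The means were 1.56% ± 0.854 in mutants and 4.33% ± 1.73 in wildtypes (SD, n = 3 each), and the groups did not overlap. This share is given as a description with no test. PSMB10, whose own comparison did not pass (edgeR adjusted p = 0.565), held most of the immunoproteasome level in every library but mutant replicate 1. Its part was 48.3%, 89.1% and 90.3% in mutant replicates 1, 2 and 3 and 90.7%, 95.9% and 67.3% in the wildtype replicates. The share without PSMB10 was not computed. Both the constitutive and the immunoproteasome sum contributed to the share. The constitutive sum was 197, 223 and 234 CPM per kb in mutants and 124, 184 and 127 in wildtypes, and the immunoproteasome sum 1.16, 4.96 and 4.55 CPM per kb against 3.87, 7.04 and 8.52. The groups of the immunoproteasome sum overlapped, since wildtype replicate 1 lay below mutant replicates 2 and 3. With PSMB10 alone in the numerator, an alternative chosen after seeing the data, the share was 0.283%, 1.95% and 1.73% in mutants. In wildtypes it was 2.76%, 3.54% and 4.32%, again without overlap. That alternative uses the same constitutive genes and, outside mutant replicate 1, most of the same numerator. It is therefore no separate support for a difference, and the levels of PSMB10 itself overlapped. Myeloid markers, which include immune cell genes, were lower in the same mutant libraries. Their sum, most of it lyz, was 10348, 13913 and 10051 CPM against 17822, 35783 and 27871 CPM, and their part in the share was not tested.

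**Figure D3:**
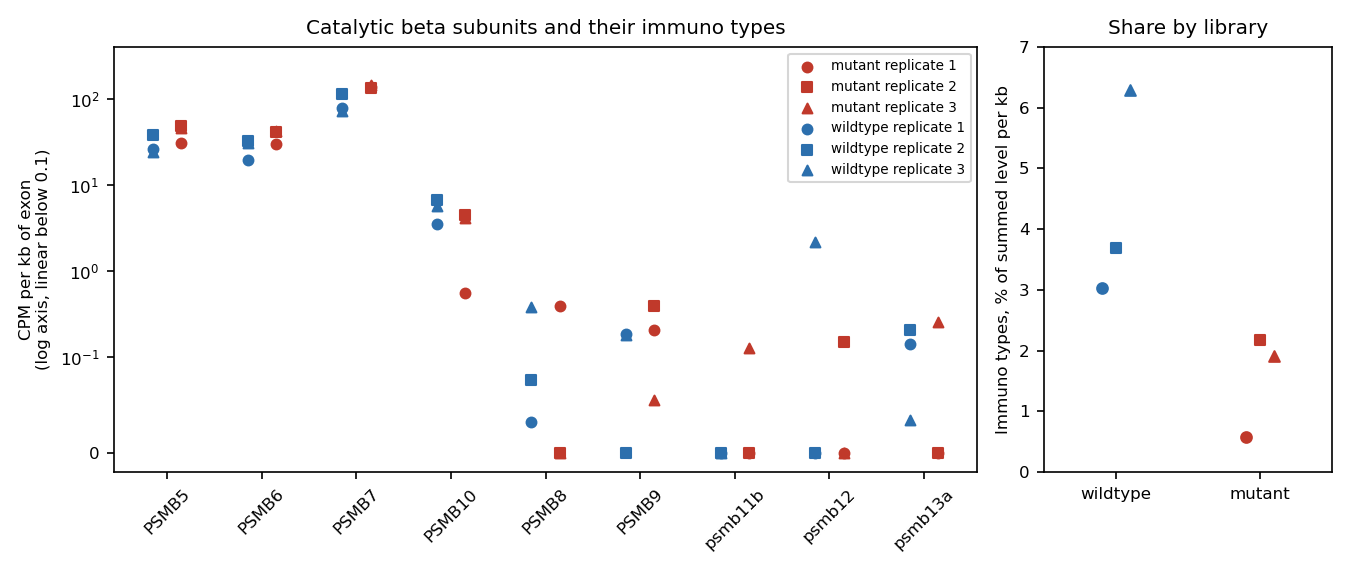
Left, level per kb of exon of the 3 constitutive catalytic beta genes and the 6 immunoproteasome types in the 6 libraries, on an axis that is logarithmic above 0.1 CPM per kb and linear below. Right, the immunoproteasome types as a percentage of the summed level per kb of all 9 genes; the mutant libraries lie between 0.583% and 2.18%, below the wildtype libraries at 3.03% to 6.29%.

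The largest positive log2 fold changes of the tested members were those of genes of the 19S base. All 10 tested base genes were positive, with a class median of 0.45 or 1.36-fold, and the 7 genes for its ATPases, the motors that unfold substrates, had a median of 0.62 or 1.54-fold. PSMC1 (chromosome 17, 8741836 to 8784241), for the Rpt2 ATPase, was at 56.9, 86.2 and 76.9 CPM in mutants and 31.9, 44.0 and 47.9 CPM in wildtypes. Every mutant library exceeded every wildtype library, and the log2 fold change was 0.83 ± 0.28 (SE), or 1.78-fold (edgeR adjusted p = 0.114). This was the largest positive log2 fold change among the 41 tested members. Without mutant replicate 1 the edgeR adjusted p of PSMC1 was 0.0536. With any other library left out it was 0.171 to 0.348. Of its 2484 exon bases 128 overlap nkl.2.

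The second zebrafish copy of this gene had a value of similar size. The copy psmc1b (chromosome 20, 16822350 to 16841374) was at 33.0, 30.7 and 32.6 CPM in mutants and 17.7, 21.0 and 17.6 CPM in wildtypes, so the lowest mutant library lay well above the highest wildtype library. The log2 fold change was 0.77 ± 0.26 (SE), or 1.71-fold (edgeR adjusted p = 0.116). PSMC6 (chromosome 20, 9776124 to 9789094), for Rpt4, was at 88.7, 141 and 133 CPM in mutants and 44.5, 80.7 and 87.4 CPM in wildtypes. Its groups only just separated, at mutant replicate 1 and wildtype replicate 3, and the log2 fold change was 0.77 ± 0.32 (adjusted p = 0.191).

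PSMC5, for Rpt6, was at 45.6, 73.3 and 69.4 CPM in mutants and 32.5, 49.5 and 40.7 CPM in wildtypes, with a log2 fold change of 0.62 ± 0.29 (SE; edgeR adjusted p = 0.239). PSMC2, for Rpt1, was at 37.1, 44.6 and 41.5 CPM and 26.4, 35.7 and 36.1 CPM, at 0.33 ± 0.26. Replicate 1 was the lowest library of its genotype in both genes, and only PSMC2 had groups that did not overlap. PSMC3 and PSMC4, for Rpt5 and Rpt3, gave 0.51 ± 0.29 and 0.28 ± 0.26 with overlapping groups.

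Of the tested scaffold and receptor genes of the base, only PSMD1 had a smaller log2 fold change than every ATPase gene. The receptor genes lay within the ATPase range of 0.28 to 0.83. PSMD1, for the scaffold subunit Rpn2, was among the most abundant base genes by CPM, at 84.2 CPM on average in mutants and 73.3 CPM in wildtypes, and had a log2 fold change of 0.20 ± 0.23 (SE; edgeR adjusted p = 0.665). Of the ubiquitin receptor genes, psmd4b gave 0.39 ± 0.30 and PSMD4 0.32 ± 0.48. PSMD4 is uncertain because 889 of its 1815 exon bases are shared with an unnamed gene on the same strand and with another gene. The 2 entries for PSMD2, the other large scaffold subunit, lie on unplaced scaffolds and held 0 counts in all 6 libraries, which allows up to 3 counts over a group. Fragments that map to several places were not counted by the authors, and whether that bears on PSMD2 was not tested.

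Lid genes ranged from PSMD12 and PSMD8 at the top to PSMD3 below 0. Of 9 tested, 8 were positive, with a median of 0.31 or 1.24-fold. PSMD8 (chromosome 18, 44622133 to 44655070), for Rpn12, was at 122, 133 and 134 CPM in mutants and 79.0, 97.5 and 72.8 CPM in wildtypes. The lowest mutant library was well above the highest wildtype library, and the log2 fold change was 0.64 ± 0.23 (SE), or 1.56-fold (edgeR adjusted p = 0.140). PSMD12 (chromosome 6, 19465326 to 19474013), for Rpn5, was at 74.7, 101 and 117 CPM and 47.6, 67.8 and 68.0 CPM, again without overlap, at 0.67 ± 0.27 (adjusted p = 0.181). PSMD13, for Rpn9, was at 48.9, 51.1 and 55.5 CPM and 40.4, 44.9 and 40.5 CPM, a narrow separation with a log2 fold change of 0.31 ± 0.23.

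PSMD14, for the Rpn11 deubiquitinase that strips ubiquitin chains from substrates, was at 74.6, 98.1 and 102 CPM in mutants and 60.5, 79.1 and 72.7 CPM in wildtypes. Mutant replicate 1 lay below wildtype replicate 2, and the log2 fold change was 0.37 ± 0.25 (SE; edgeR adjusted p = 0.415). PSMD3, for Rpn3, was at 20.6, 14.7 and 15.4 CPM in mutants and 21.0, 31.1 and 17.8 CPM in wildtypes, at -0.47 ± 0.33 (adjusted p = 0.444). It was the only lid gene with a negative value, and its groups overlapped because mutant replicate 1 exceeded wildtype replicate 3. PSMD11 on chromosome 3, for Rpn6, was at 96.3, 127 and 119 CPM and 106, 119 and 72.2 CPM, at 0.20 ± 0.27, and the copy on chromosome 12 gave 0.30 ± 0.29. PSMD6 and PSMD7 gave 0.19 ± 0.29 and 0.41 ± 0.30, but 916 of the 1633 exon bases of PSMD7 overlap pkd1l2b on the opposite strand.

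The chaperones of the base, which help to build it and then leave, were low, and PSMD9 and PSMD10 varied more among libraries than PSMD5. PSMD9 was at 12.1, 29.5 and 27.2 CPM in mutants and 11.2, 18.1 and 21.4 CPM in wildtypes, at a log2 fold change of 0.44 ± 0.41 (SE; edgeR adjusted p = 0.576). PSMD10, also called gankyrin, was at 8.89, 14.9 and 14.9 CPM and 3.48, 12.5 and 14.3 CPM, at 0.35 ± 0.53. The value of PSMD10 rested on wildtype replicate 1, without which its log2 fold change was -0.056. PSMD5 gave -0.17 ± 0.41, and PSMC3IP -0.34 ± 0.49, with overlapping groups in both.

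Summed over a class, the mutant excess was of similar size in each constitutive part of the complex. The alpha genes summed to 557, 684 and 687 CPM in mutant replicates 1, 2 and 3 and 399, 600 and 487 CPM in the wildtype replicates, a ratio of means of 1.30. The constitutive beta genes summed to 648, 777 and 753 CPM against 420, 626 and 511 CPM, a ratio of 1.40. The base summed to 466, 633 and 629 CPM against 318, 451 and 431 CPM, a ratio of 1.44. For beta and base genes the groups did not overlap, the lowest mutant library lying just above the highest wildtype library, while for alpha genes mutant replicate 1 fell below wildtype replicate 2. The lid summed to 546, 704 and 698 CPM against 454, 582 and 471 CPM, a ratio of 1.29 with overlap. All 38 constitutive subunit genes together reached 2594 ± 328 CPM in the mutant libraries, against 1917 ± 334 CPM (SD, n = 3 each), a ratio of 1.35. The 3 base chaperone genes had a ratio of 1.23. The immunoproteasome types had one of 0.568.

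**Figure D4:**
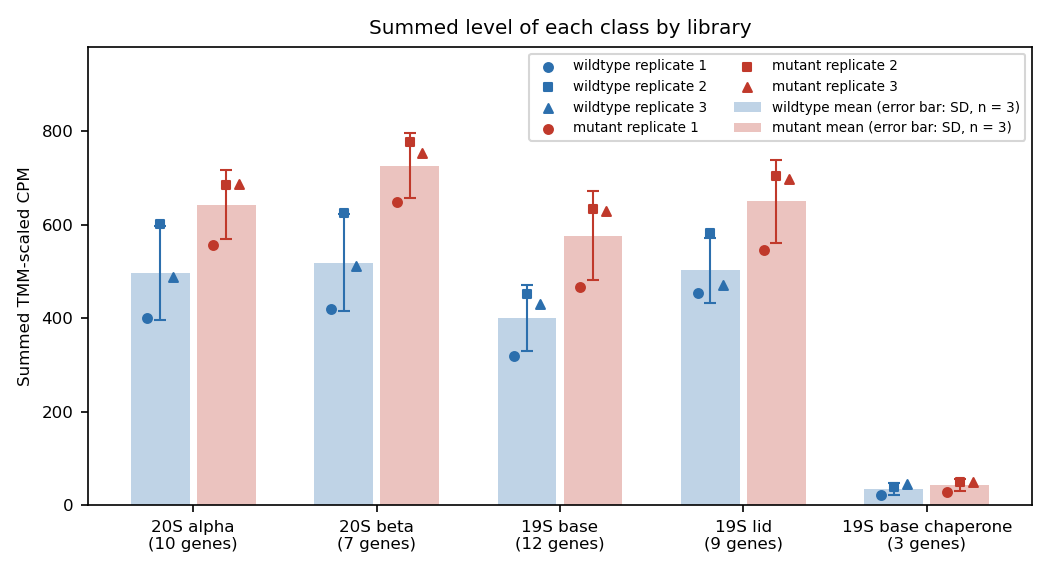
Summed CPM of each constitutive class and of the base chaperones in the 6 libraries (points), with the mean (bar) and SD (line, n = 3) of each genotype, on an axis from 0. Mutant means are higher in each class, and replicate 1 is the lowest library of its genotype in each.

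The genes varied together from library to library within a genotype. Mutant replicate 1 was the lowest mutant library for 31 of the 41 tested members, or 75.6%, beside 40.2% of all genes tested. Wildtype replicate 1 was the lowest wildtype library for 30 members, or 73.2%, beside 38.5% of all genes, and the highest for 0, beside 35.7%. Wildtype replicate 2 was the highest wildtype library for 27 members, or 65.9%, beside 32.5%. Marker sums followed this order only in part. Replicate 1 was the lowest library of its genotype in the red blood cell sum (6225 CPM among mutants and 626 CPM among wildtypes) and the thrombocyte sum (303 and 152 CPM). Wildtype replicate 3, not 2, was highest in both, but by little in the thrombocyte sum (347 against 342 CPM). Among mutants, replicate 2 was highest in the red blood cell sum (21168 CPM), and replicate 3 in the thrombocyte sum (750 CPM). The sum of all members was also highest in mutant replicate 2 (2861 CPM, against 2825 CPM in replicate 3). The myeloid sum had the wildtype order of the proteasome genes, at 17822, 35783 and 27871 CPM in replicates 1, 2 and 3, while among mutants replicate 3 was lowest, at 10051 CPM. Most of it was lyz, at 12891, 26511 and 21966 CPM in the wildtype replicates and 7173, 10424 and 7297 CPM in the mutant replicates. The neuron and retina sum was highest in replicate 1 of each genotype (59.1 and 538 CPM), and the lens sum was highest in mutant replicate 1 (277 CPM). The part of these cell types in the proteasome levels was not tested. The shared variation means that the members are not independent measurements of the genotype difference.

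Levels per kb of exon were higher, by class median, for genes of the core than for genes of the cap. In wildtypes the median was 63.1 CPM per kb for constitutive beta genes and 44.3 for alpha genes, against 21.4 for base and 23.6 for lid genes. The range was 1.23 (psma6l) to 69.0 (PSMA2) among alpha genes and 27.4 (PSMB6) to 97.3 (PSMB3) among beta genes. It was 2.58 (PSMD4) to 45.4 (PSMC6) in the base and 12.3 (PSMD3) to 61.5 (PSMD14) in the lid. The PSMD4 level is uncertain, because 889 of its 1815 exon bases are shared with other genes. The base chaperones were lower, with a median of 7.83 CPM per kb. Mutant medians were 78.8, 55.2, 26.97 and 34.6 CPM per kb for beta, alpha, base and lid genes, in the same order.

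Where zebrafish hold a pair of gene copies, the genotypes differed little in the balance between the copies. PSMA2 made up 68.9% ± 0.886 of the level per kb of the pair with psma2a in mutants and 67.0% ± 5.95 in wildtypes (SD, n = 3 each). PSMA6 on chromosome 17 made up 71.6% ± 4.48 and 71.9% ± 3.57 of its pair. PSMC1 made up 57.7% ± 6.04 and 56.8% ± 5.12 of the pair with psmc1b. PSMD11 on chromosome 3 made up 55.7% ± 4.50 and 56.1% ± 6.51 of its pair, and PSMD4 13.05% ± 1.08 and 14.0% ± 4.76 of the pair with psmd4b. The share of PSMD4 is uncertain because of the exon bases it shares with other genes. In each pair the genotype means differed by less than the SD among the wildtype libraries.

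Genes that work with the proteasome were read from 5 lists, matched to 70 tested genes, of which 1 was higher and 2 lower in mutants. Among all genes tested 3.34% were higher and 1.99% lower, so these counts lie near the background. In the list of ubiquitin, its activation and the p97 unfoldase, VCP rose while the other 16 tested genes did not pass. VCP encodes p97, the ATPase that pulls ubiquitinated proteins out of complexes and membranes and hands them to the proteasome. VCP (chromosome 5, 40910234 to 40920827) was at 325, 368 and 379 CPM in mutants and 140, 196 and 160 CPM in wildtypes. The groups were far apart, with a log2 fold change of 1.11 ± 0.24 (SE), or 2.16-fold (edgeR adjusted p = 0.0312). With mutant replicate 1 left out the call held (adjusted p = 0.0236). It was lost when any other library was left out: mutant replicate 2 (0.136) or 3 (0.133), or wildtype replicate 1 (0.0630), 2 (0.0935) or 3 (0.102).

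None of the p97 cofactor genes FAF2, UFD1, UBXN1, NPLOC4, FAF1 and NSFL1C passed by edgeR. The log2 fold changes were 0.28 for FAF2, 0.65 for UFD1, 0.67 for UBXN1 and 0.72 for NPLOC4, and larger for FAF1 and NSFL1C. By limma voom NPLOC4 was called. NSFL1C, for the p47 cofactor, was at 55.7, 79.7 and 85.1 CPM in mutants and 29.0, 38.2 and 42.7 CPM in wildtypes, at a log2 fold change of 1.01 ± 0.28 (SE; edgeR adjusted p = 0.0701). FAF1, for a cofactor that also binds ubiquitin, was at 64.3, 85.7 and 92.2 CPM and 33.6, 50.5 and 38.4 CPM, at 0.98 ± 0.27 (adjusted p = 0.0694). The ubiquitin-conjugating enzyme gene ube2r2 was at 21.2, 23.3 and 37.4 CPM and 12.6, 6.83 and 13.2 CPM, at 1.32 ± 0.38 (adjusted p = 0.0768). In these 3 genes every mutant library exceeded every wildtype library, and DESeq2 and limma voom called each of them. Over the 17 tested genes of the list the median was 0.38, and 13 were positive (76.5%, beside 51% of all genes tested). The 4 negative log2 fold changes reached down to -0.46. The groups of 8 genes did not overlap, all with mutants higher (47.1%, beside 15.3%).

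In the antigen processing and interferon list, 2 of 19 tested genes fell, where 1.99% of all genes tested were lower, and 17 did not pass. The median log2 fold change was -0.56, against 0.02 over all genes tested. PDIA3, for the protein disulfide isomerase of the peptide loading complex, was at 58.1, 54.2 and 63.8 CPM in mutants and 144, 252 and 190 CPM in wildtypes. It was 3.32-fold lower, at -1.73 ± 0.27 (SE; edgeR adjusted p = 0.0127). The call ended when mutant replicate 2 (0.0694) or 3 (0.0630) or wildtype replicate 2 (0.0744) was left out. The calreticulin gene calr3b, for a chaperone of glycoprotein folding, was at 198, 218 and 163 CPM and 413, 692 and 584 CPM. It was 2.92-fold lower (-1.54 ± 0.28, adjusted p = 0.0178). That call ended when mutant replicate 2 (0.0758) or 3 (0.0994), or wildtype replicate 2 (0.0909) or 3 (0.0583), was left out. PDIA3 and calr3b act in the folding of glycoproteins of the endoplasmic reticulum in general and are not specific to antigen presentation. IRF8, a transcription factor gene of myeloid cells, was at 10.6, 4.07 and 8.48 CPM in mutants and 19.4, 13.9 and 16.3 CPM in wildtypes, at -1.10 ± 0.42 (adjusted p = 0.160). CANX, for the chaperone calnexin, gave -0.56 ± 0.23 (adjusted p = 0.187). By limma voom IRF8 and CANX were called lower (adjusted p = 0.0376 and 0.0384). The myeloid marker sum, most of it lyz, was 11437 ± 2149 CPM in mutants against 27158 ± 9002 CPM (SD, n = 3 each), and its part in these values was not tested.

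No gene of the other 3 lists passed by edgeR or DESeq2. The 10 genes for core assembly chaperones, activators and an inhibitor had a median of 0.17. Of these POMP, which matures the core, gave 0.36 ± 0.26 (SE), and PSME4 (ENSDARG00000018742) and PSME3, for activator caps, 0.51 ± 0.28 and 0.50 ± 0.29. PSMG2, for an early assembly chaperone, was at 2.38, 4.78 and 2.74 CPM in mutants and 5.39, 7.32 and 9.15 CPM in wildtypes, without overlap, at -1.14 ± 0.50 (adjusted p = 0.213). At an unadjusted p below 0.05 it was the only gene of that list.

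The 16 genes for ubiquitin receptors, deubiquitinases and other associates of the regulatory particle had a median of 0.08. The gene zfand5a was at 125, 97.7 and 72.0 CPM in mutants and 159, 170 and 153 CPM in wildtypes, at a log2 fold change of -0.71 ± 0.26 (SE; edgeR adjusted p = 0.147), and limma voom called it lower. The shuttle factor gene UBQLN4, whose product carries ubiquitinated proteins to the proteasome, gave 0.58 ± 0.24, and the ligase gene UBE3C 0.59 ± 0.31. At an unadjusted p below 0.05, 1 gene of this list was higher and 1 lower (6.25% each way, beside 11.9% and 10.9% of all genes tested).

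The 8 tested genes for regulators of proteasome transcription also had a median of 0.08. The gene nfe2l1b, a homologue of NRF1, which raises proteasome genes in mammalian cells when the complex is inhibited, was at 53.4, 57.9 and 54.1 CPM in mutants and 47.5, 36.7 and 44.9 CPM in wildtypes. Its groups did not overlap, at a log2 fold change of 0.36 ± 0.24 (SE; edgeR adjusted p = 0.416). NFYC, for a subunit of the CCAAT-binding factor, was at 53.9, 59.3 and 63.3 CPM against 35.5, 34.3 and 33.3 CPM, a wide separation, at 0.77 ± 0.23 (adjusted p = 0.0877), and limma voom called it higher. MAFK and maff, for small Maf partners, gave -0.51 ± 0.34 and 0.31 ± 0.27. NFYC was the only gene of this list with an unadjusted p below 0.05.

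**Figure D5:**
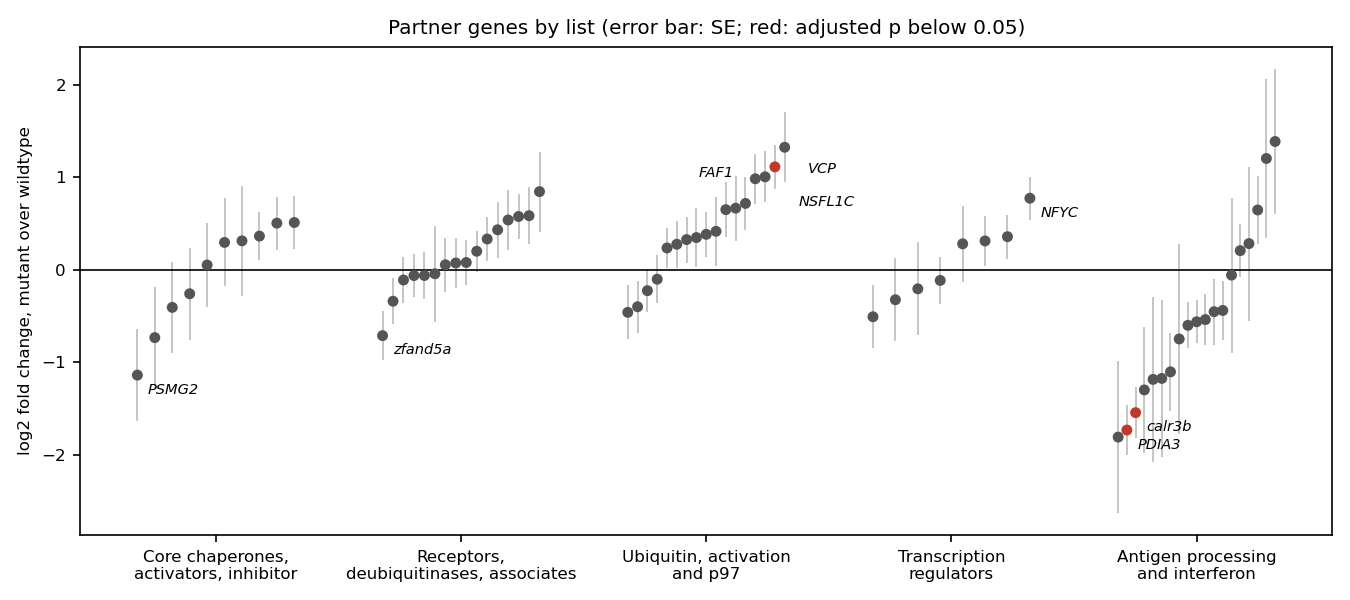
Log2 fold change of mutant over wildtype for the 70 tested genes of the 5 partner lists, ordered within each list, with the SE from edgeR as error bar; red points passed at adjusted p below 0.05. VCP at 1.11 passed among the ubiquitin and p97 genes, and PDIA3 at -1.73 and calr3b at -1.54 among the antigen processing genes.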

How the data were processed

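The authors ran featureCounts 1.5.0-p1 on Ensembl release 85 of GRCz10 to obtain fragment counts, per the file headers. Both mates had to map, chimeric pairs were left out, and options for overlap, strand or multiple mapping were not set. STAR 2.4.2a, Picard, Trim Galore, DESeq2 and Cufflinks 2.2.1 are named without roles, per the submitters' processing notes. The deposited values are raw counts, not normalized, and the exon length of each gene is the authors' deposited value. Overlapping genes and near-identical copies are therefore uncertain.

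Identifiers were named through a table of Ensembl symbols (26269 of 32105 genes). Of 193 entries in 12 lists, 143 matched by symbol and 22 by orthologue symbol, 16 were ambiguous and 12 did not match. The member rule, which reads symbols only, and the lists were chosen with earlier results of these data known. The ddx41 level was not analysed here, and no other check of the genotype labels was made.

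In R 4.3.3, edgeR 4.0.16 was run on the 6 libraries with TMM scaling, filterByExpr (minimum count 10, minimum total 15), genotype alone, the two-sided quasi-likelihood F test and Benjamini-Hochberg adjustment over 18722 genes, at a threshold of 0.05. The SE is the log2 fold change over the square root of F, and the 95% interval uses the t distribution of the fit. CPM use the TMM factors, and levels per kb divide them by exon length. Genes were named where their libraries did not overlap, for every immunoproteasome type, for the 2 members of a class with the smallest p and the 2 with the highest level, and for up to 4 genes per partner list by smallest p; other members with values were named after these were seen. A gene this rule names is left out of the text. Alternatives were RLE size factors, no filter, 1 CPM in 3 libraries, DESeq2 1.42.0, limma 3.58.1 voom with sample weights, a replicate block, no mitochondrial counts, and each library left out.

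No libraries were alike within counting noise (chi-square per degree of freedom at least 18.3). On simulated counts for the 18722 genes in the mutant against wildtype comparison, recovery was 0% for 67 genes with a 2-fold change, 26.9% for 67 with a 4-fold change and 48.5% for 66 with an 8-fold change, with 2 unchanged genes among 52 called.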

Additional observations from a re-analysis of the deposited data

How the results depend on the processing

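The median log2 fold change of the tested members stayed between 0.27 (without wildtype replicate 1) and 0.49 over all alternatives run, and the ratios of class sums and the immunoproteasome share moved by less than the spread between libraries in each. The share averaged 1.25% to 2.04% in mutants and 3.35% to 4.99% in wildtypes with 1 library left out. With PSMB10 alone, which is not a separate measure, the averages were 1.32% and 3.54%. Members called higher numbered 2 by limma voom and 0 by every other alternative, and members called lower 0 by all. Over all genes, 625 were higher and 373 lower by edgeR, 1297 and 1168 by DESeq2, and 1460 and 1352 by limma voom. With 1 library left out the counts ranged from 51 to 1135 higher and from 11 to 832 lower, the low ends without wildtype replicate 2 and the high ends without mutant replicate 1. Partner genes called higher numbered 1 by edgeR, 4 by DESeq2, 6 by limma voom and 0 to 4 with 1 library left out. Partner genes called lower numbered 2, and 5 by limma voom, and 0 to 2 with 1 library left out. Of 533 values for 41 named genes under 13 alternatives, 502 kept direction and side of the threshold, 12 missed it, 18 newly passed it and 1 changed sign, PSMD10 at -0.056 without wildtype replicate 1 (range -0.056 to 0.69 with 1 library left out). The cause was not tested in these cases.

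The labels do not say whether libraries of the same replicate number belong together. Deviations of same-numbered libraries correlated at 0.224, 0.155 and 0.0875, and whether they shared a batch was not tested. With the replicate number as a block in edgeR, 0 members passed (11 at an unadjusted p below 0.05, smallest adjusted p = 0.0588). The share of all genes at that unadjusted p is not given for this fit. In the same fit 4 partner genes were higher and 2 lower, and 917 genes in all were higher and 653 lower. On simulated counts 0% of genes changed 2-fold were recovered. Only 52 genes were called there, where the data gave 625 higher and 373 lower, so this value does not give the recovery for the members. A member that misses the threshold is still not shown to be equal in both genotypes.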
